A study of Homo sapiens with 8 samples.

Results

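The genes described are 10 of the semaphorin signalling system, taken from a table of 61517 genes. They comprise 7 semaphorin genes (SEMA3A, SEMA3B, SEMA3C, SEMA3F, SEMA4B, SEMA4C and SEMA4D), both neuropilin genes (NRP1 and NRP2) and the plexin gene PLXNA1. They were chosen by symbol from these families, with their levels in the 4 groups already known, so their differences between groups are given as descriptions with a standard error and without p-values. All 10 passed the expression filter, as did 15554 genes in all. The cells were KYSE150, a human esophageal squamous cell carcinoma line grown in RPMI-1640 medium with serum, and poly(A)-selected RNA was sequenced in 2 libraries per group. The groups were labelled hypoxia+oxamate+NALA, hypoxia+oxamate, hypoxia and normoxia. The first 3 groups shared low oxygen, and the first 2 also shared oxamate, an inhibitor of lactate dehydrogenase. The abbreviation NALA is taken here to mean sodium lactate, which the treatment protocol names. Below, the hypoxia+oxamate+NALA libraries are called NALA libraries and the hypoxia+oxamate libraries are called oxamate libraries. The oxygen level, the doses and the treatment times were not stated, and whether both libraries of a group are separate cultures was not stated either. The p-values therefore measure the spread between these libraries only, which may be technical.

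Semaphorins are secreted or membrane-bound proteins that were first known as guidance cues of growing axons. Class 3 semaphorins are secreted and mostly bind a neuropilin, which forms a receptor complex with a class A plexin that passes the signal on. Class 4 semaphorins span the membrane and mainly bind class B plexins directly. Neuropilins also bind growth factors of the VEGF family. In carcinomas, several of these proteins are known as regulators of cell migration, blood vessel growth and immune cells.

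Total counts ran from 21845676 to 29406061 per library, and TMM factors, which correct for composition, from 0.879 to 1.15. A floor of 3 counts corresponds to between 0.102 and 0.137 CPM (counts scaled to a common library size). The hypoxia label was checked on CA9, NDRG1 and LDHA, which are targets of hypoxia-inducible factor (HIF). CA9 stood at 17.2 and 19.8 CPM in NALA, 8.71 and 7.40 CPM in oxamate, 243 and 248 CPM in hypoxia and 5.73 and 6.99 CPM in normoxia libraries. NDRG1 stood at 3624 and 3787 CPM in NALA, 397 and 396 CPM in oxamate, 7382 and 7331 CPM in hypoxia and 32.7 and 40.0 CPM in normoxia libraries. LDHA, encoding a lactate dehydrogenase subunit, stood at 4526 and 4347 CPM in NALA, 2624 and 2611 CPM in oxamate, 5657 and 5656 CPM in hypoxia and 1331 and 1323 CPM in normoxia libraries. All 3 genes were highest in hypoxia alone and lowest in normoxia, and CA9 in the oxamate and NALA libraries lay much nearer to normoxia than to hypoxia. On the opposite strand ARHGEF39, at 15.8% of the level of CA9, overlaps 38.5% of the exon bases of CA9. The 8 genes listed as squamous or epithelial markers summed to between 2321.5 and 4167 CPM of the library totals, led by the basal keratin gene KRT5. They did not move together. KRT5, KRT14, KRT6A, KRT17 and EPCAM had their lowest group mean in hypoxia, where TP63 and CDH1 had their highest. SOX2 had at most 12 counts in any library and 0 in both NALA libraries. Leukocyte markers summed to at most 2.20 CPM and endothelial markers to at most 2.56 CPM, and MS4A1, COL3A1 and DCN had 0 counts in all 8 libraries. The 6 fibroblast markers, led by the collagen gene COL1A1, summed to 0.732 and 1.03 CPM in NALA, 0.714 and 1.24 CPM in oxamate, 8.69 and 8.97 CPM in hypoxia and 2.69 and 3.02 CPM in normoxia libraries. The 6 neuronal and glial markers summed to between 23.4 and 45.3 CPM, led by MBP. The part of these marker genes in the results was not tested. The mitochondrial chromosome held 2.14% and 2.09% of counts in NALA, 2.45% and 2.44% in oxamate, 4.78% and 4.61% in hypoxia and 5.74% and 5.73% in normoxia libraries, and its part was not tested either. In bulk RNA, fewer cells that express a gene and less RNA per cell cannot be told apart.

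Levels are TMM-scaled CPM, as single libraries or as mean ± SD (n = 2 libraries per group). Fold changes are log2 values ± standard error from a model of all 8 libraries.

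SEMA4B and SEMA3F had the largest differences between hypoxia and normoxia among the 10 genes. SEMA4B (ENSG00000185033, plus strand of chr15:90160604-90229679 on GRCh38) encodes a transmembrane class 4 semaphorin. It was measured at 89.1 and 102 CPM in NALA, 34.1 and 31.0 CPM in oxamate, 231 and 224 CPM in hypoxia and 44.3 and 46.6 CPM in normoxia libraries. The hypoxia libraries were the highest, the NALA libraries lay between them and normoxia, the oxamate libraries were the lowest, and no groups overlapped. The highest group mean was 6.98 times the lowest. SEMA3F (ENSG00000001617, plus strand of chr3:50155045-50189075) encodes a secreted class 3 semaphorin that binds NRP2 with preference over NRP1. It was measured at 4.02 and 4.69 CPM in NALA, 5.77 and 5.50 CPM in oxamate, 45.9 and 45.0 CPM in hypoxia and 6.66 and 7.97 CPM in normoxia libraries. The hypoxia libraries stood alone, with a group mean 10.4 times that of the NALA libraries, and NALA was the lowest group. SEMA3F shares 2.28% of its exon bases with the antisense gene SEMA3F-AS1, which averaged 4.25% of its level over all libraries.

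The promoter windows of these genes, and of SEMA4D and PLXNA1, are shown because HIF binds a short core motif, ACGTG or GCGTG, and hypoxia was one of the conditions compared. The RefSeq table on GRCh38.p14 gives 250 bases before and 50 bases after a start site. It held 17 windows for 8 of the 10 genes, including overlapping windows of alternative starts, and none was used for SEMA3A and NRP1. ACGTG and GCGTG were searched on both strands, and capitals mark each match. A match was found in 7 of the 17 windows (41.2%), against 48.4% of all 35116 windows in the table. The 7 windows belong to SEMA3B, SEMA4D and PLXNA1, and most of them to SEMA3B, whose windows are not shown. Its windows chr3:50272869-50273168 and chr3:50272899-50273198 overlap and hold the same matches. Whether matches go with a direction of change was not tested. All 3 windows of SEMA4B and all 3 of SEMA3F, the genes with the highest ratio of hypoxia to normoxia, held no match, which says only that these letters are not in these windows. In SEMA4D the first 2 matches are the same palindrome, CACGTG, read on each strand. The windows shown are chr15:90201080-90201379 (plus strand) for SEMA4B, chr3:50154808-50155107 (plus strand) for SEMA3F, chr9:89495607-89495906 (minus strand) for SEMA4D and chr3:126982865-126983164 (plus strand) for PLXNA1. RefSeq starts need not match the gene positions given here. The SEMA4B and SEMA4D windows lie inside those positions, and the PLXNA1 window lies wholly before them. Which start these cells use was not tested.
SEMA4B: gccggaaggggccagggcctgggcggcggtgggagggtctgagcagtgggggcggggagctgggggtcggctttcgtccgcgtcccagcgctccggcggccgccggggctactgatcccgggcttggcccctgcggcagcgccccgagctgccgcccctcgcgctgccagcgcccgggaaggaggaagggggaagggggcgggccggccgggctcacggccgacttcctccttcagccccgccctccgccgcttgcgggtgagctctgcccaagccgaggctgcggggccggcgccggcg
SEMA3F: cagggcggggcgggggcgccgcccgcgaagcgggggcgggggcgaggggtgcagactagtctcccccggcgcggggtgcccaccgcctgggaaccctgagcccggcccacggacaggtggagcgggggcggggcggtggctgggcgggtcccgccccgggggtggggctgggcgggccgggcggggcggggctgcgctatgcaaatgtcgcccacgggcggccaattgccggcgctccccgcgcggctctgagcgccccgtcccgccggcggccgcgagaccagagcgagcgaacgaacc
SEMA4D: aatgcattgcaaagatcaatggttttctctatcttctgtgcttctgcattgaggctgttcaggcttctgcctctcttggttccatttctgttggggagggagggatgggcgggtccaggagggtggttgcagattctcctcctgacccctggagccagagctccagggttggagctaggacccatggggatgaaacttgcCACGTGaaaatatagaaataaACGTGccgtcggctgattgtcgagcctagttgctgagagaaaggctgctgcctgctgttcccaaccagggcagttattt
PLXNA1: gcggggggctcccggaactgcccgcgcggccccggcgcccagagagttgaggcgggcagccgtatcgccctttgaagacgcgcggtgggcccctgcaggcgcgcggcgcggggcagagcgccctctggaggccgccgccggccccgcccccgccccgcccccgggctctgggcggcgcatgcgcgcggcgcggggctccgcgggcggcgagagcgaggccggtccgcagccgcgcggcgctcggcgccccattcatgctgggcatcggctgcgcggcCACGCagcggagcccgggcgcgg

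**Figure D1:**
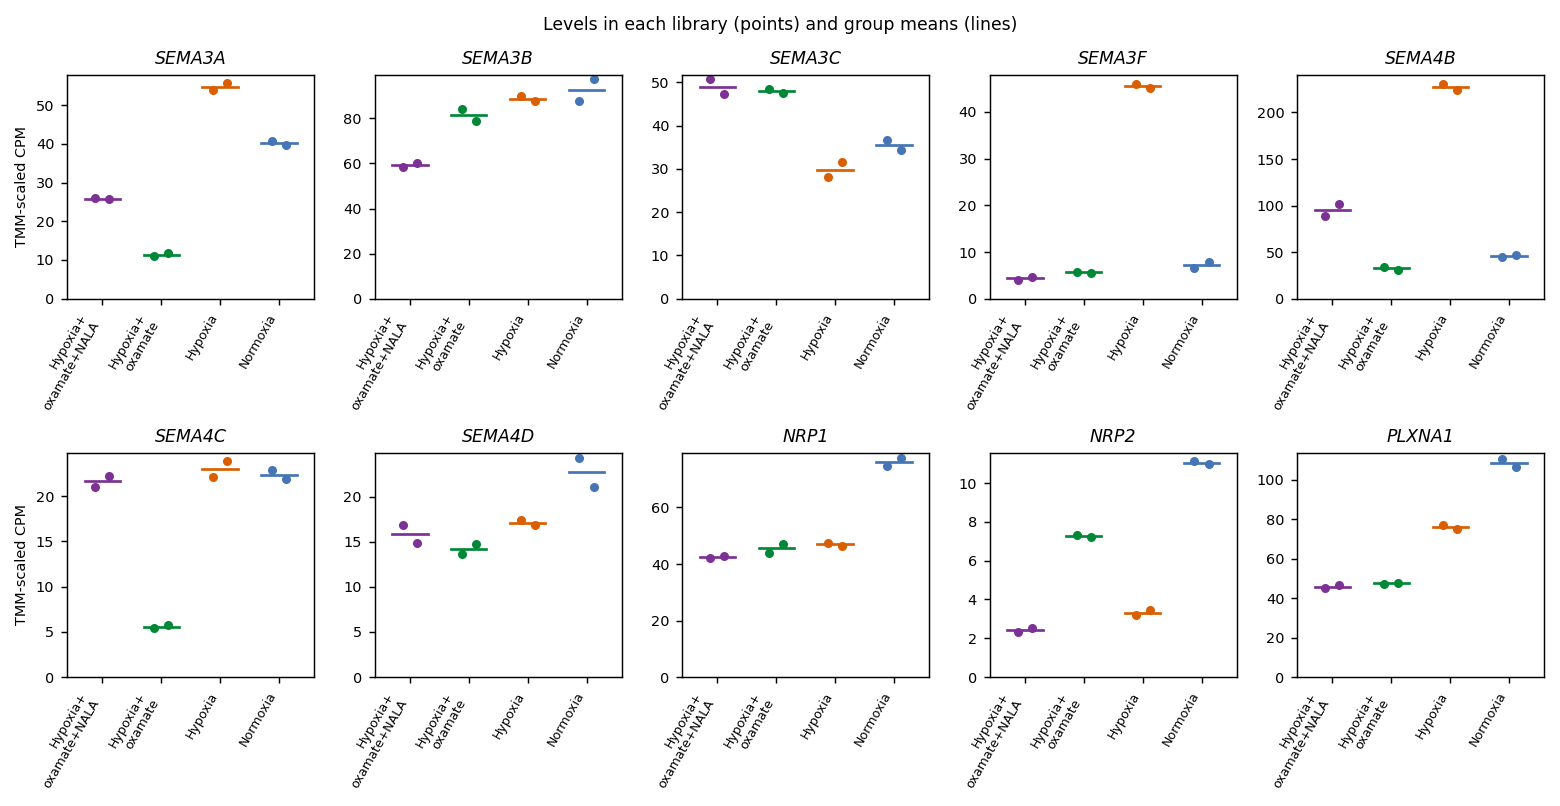
TMM-scaled CPM (vertical axis, from 0) of the 10 genes in each library (points) and the group means (lines), with hypoxia+oxamate+NALA, hypoxia+oxamate, hypoxia and normoxia from left to right. SEMA3F and SEMA4B peak in hypoxia, SEMA4C is low in the oxamate libraries alone, and NRP1, NRP2 and PLXNA1 are highest in normoxia.

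The other class 3 ligands followed other patterns. SEMA3A (ENSG00000075213, minus strand of chr7:83955777-84492724) encodes the semaphorin for which growth cone collapse was first described, and it signals through NRP1. It was measured at 26.0 and 25.7 CPM in NALA, 11.0 and 11.7 CPM in oxamate, 53.8 and 55.6 CPM in hypoxia and 40.6 and 39.6 CPM in normoxia libraries. No groups overlapped, with hypoxia the highest and oxamate the lowest. SEMA3C (ENSG00000075223, minus strand of chr7:80742538-80922359) encodes a ligand of both neuropilins. It had 50.7 and 47.4 CPM in NALA, 48.6 and 47.5 CPM in oxamate, 28.0 and 31.6 CPM in hypoxia and 36.6 and 34.3 CPM in normoxia libraries. Here hypoxia was the lowest group, and the NALA and oxamate libraries overlapped. SEMA3B (ENSG00000012171, plus strand of chr3:50267558-50277546) encodes a ligand known as a candidate tumor suppressor of the short arm of chromosome 3. It had 58.5 and 60.3 CPM in NALA, 84.3 and 78.9 CPM in oxamate, 89.8 and 87.8 CPM in hypoxia and 87.9 and 97.5 CPM in normoxia libraries. The NALA libraries were the lowest, and hypoxia and normoxia overlapped. SEMA3F and SEMA3B are on the same strand with 78482 bases between them, and their patterns differed, since SEMA3F was 6.18-fold higher in hypoxia than in normoxia while SEMA3B overlapped between the same groups.

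The other class 4 ligands were SEMA4C and SEMA4D. SEMA4C (ENSG00000168758, minus strand of chr2:96859716-96870757) encodes a ligand of PLXNB2. It was measured at 21.0 and 22.2 CPM in NALA, 5.38 and 5.70 CPM in oxamate, 22.1 and 23.9 CPM in hypoxia and 22.8 and 21.9 CPM in normoxia libraries. Only the oxamate libraries stood apart, below the other 3 groups, and each pair of those 3 groups overlapped. SEMA4D (ENSG00000187764, minus strand of chr9:89360787-89498130), also called CD100, encodes a ligand of PLXNB1 and is abundant on T cells. It had 16.8 and 14.9 CPM in NALA, 13.7 and 14.8 CPM in oxamate, 17.4 and 16.9 CPM in hypoxia and 24.3 and 21.1 CPM in normoxia libraries. Normoxia was the highest group, and the ratio of the highest to the lowest group mean was 1.60.

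All 3 receptor genes were highest in normoxia. NRP1 (ENSG00000099250, minus strand of chr10:33177492-33336262) encodes a co-receptor of SEMA3A and of VEGF-A. It was measured at 42.0 and 42.9 CPM in NALA, 44.1 and 47.0 CPM in oxamate, 47.5 and 46.5 CPM in hypoxia and 74.7 and 77.6 CPM in normoxia libraries. The 3 groups in low oxygen lay close together, and oxamate and hypoxia overlapped. NRP2 (ENSG00000118257, plus strand of chr2:205681990-205798133) encodes the co-receptor of SEMA3F and of VEGF-C. It had 2.34 and 2.53 CPM in NALA, 7.32 and 7.24 CPM in oxamate, 3.19 and 3.45 CPM in hypoxia and 11.1 and 11.0 CPM in normoxia libraries. No groups of NRP2 overlapped, and the oxamate libraries were above both other groups in low oxygen. PLXNA1 (ENSG00000114554, plus strand of chr3:126988594-127037392) encodes a class A plexin that transmits class 3 signals. It had 44.9 and 46.5 CPM in NALA, 47.2 and 47.7 CPM in oxamate, 77.0 and 74.8 CPM in hypoxia and 110.3 and 106 CPM in normoxia libraries. The order was normoxia, hypoxia, oxamate and NALA, without overlap.

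Levels of different genes were compared per kilobase of exon length in GENCODE release 29, which need not be the release used for counting. That length merges the exons of all transcripts of a gene. Which transcripts these cells express was not tested, and the ranks, sums, shares and ratios below depend on it. In hypoxia SEMA4B had the highest mean of the 20 semaphorin genes at 32.5 CPM per kb, and SEMA4B also led in the NALA libraries, while SEMA3B led in the oxamate and normoxia libraries. In the NALA libraries the mean was 13.6 CPM per kb for SEMA4B, 11.3 CPM per kb for SEMA7A and 10.3 CPM per kb for SEMA3B. In oxamate libraries the means of SEMA4B, SEMA7A and SEMA3B were 4.65, 3.09 and 14.1 CPM per kb. Summed over the 20 semaphorin genes, the level was 57.6 and 62.6 CPM per kb in NALA, 43.8 and 42.5 CPM per kb in oxamate, 110.1 and 109 CPM per kb in hypoxia and 60.8 and 62.6 CPM per kb in normoxia libraries. SEMA4B made up 22.1% and 23.2% of that sum in NALA, 11.1% and 10.4% in oxamate, 29.9% and 29.4% in hypoxia and 10.4% and 10.6% in normoxia libraries. SEMA3B made up 17.6% and 16.7% in NALA, 33.4% and 32.2% in oxamate, 14.1% and 14.0% in hypoxia and 25.1% and 27.0% in normoxia libraries. The summed level was highest in hypoxia and lowest with oxamate. The ratio of NRP1 to NRP2 per exon length was 21.7 and 20.5 in NALA, 7.26 and 7.83 in oxamate, 18.0 and 16.3 in hypoxia and 8.10 and 8.50 in normoxia libraries. It was higher in the NALA and hypoxia libraries than in the other 2 groups.

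**Figure D2:**
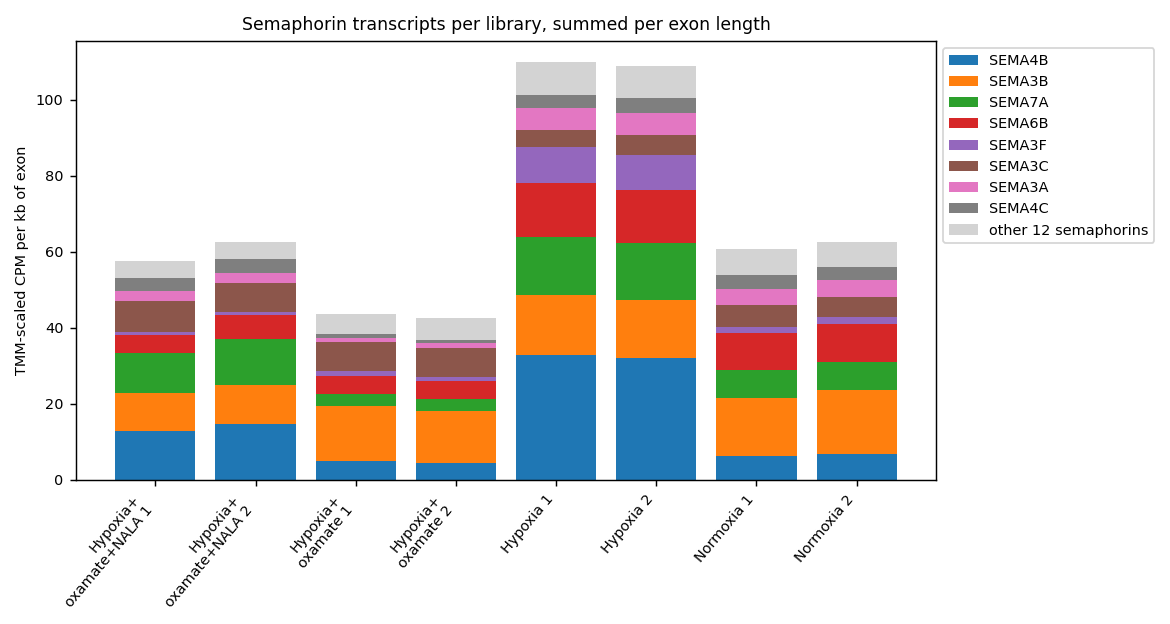
TMM-scaled CPM per kb of exon length (vertical axis, from 0), stacked over the 20 semaphorin genes, for the 2 libraries of hypoxia+oxamate+NALA, hypoxia+oxamate, hypoxia and normoxia from left to right. The bars reach 110.1 and 109 in hypoxia and 43.8 and 42.5 with oxamate, and the SEMA4B segment is tallest in hypoxia.

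Hypoxia against normoxia asked how low oxygen alone differed from normal oxygen. SEMA3F was higher in hypoxia by 2.63 ± 0.088 and SEMA4B by 2.32 ± 0.055, and SEMA3A was higher by 0.45 ± 0.054. The receptors differed the other way, with NRP2 at -1.74 ± 0.13, NRP1 at -0.70 ± 0.048 and PLXNA1 at -0.51 ± 0.042. SEMA4D (-0.40 ± 0.085) and SEMA3C (-0.25 ± 0.065) were also lower. SEMA3B (-0.06 ± 0.048) and SEMA4C (0.04 ± 0.074) did not pass the threshold. In edgeR's quasi-likelihood test 3 of the 10 genes were called higher and 5 lower, a share of 80.0%. Over all tested genes 73.5% were called, 36.7% higher and 36.8% lower, and nothing is read from the members' share. The median log2 fold change was -0.16 over the 10 genes and 0.02 over all tested genes. SEMA3C was no longer called without hypoxia replicate 1 (-0.17), and SEMA3B was called lower without normoxia replicate 1 (-0.14).

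**Figure D3:**
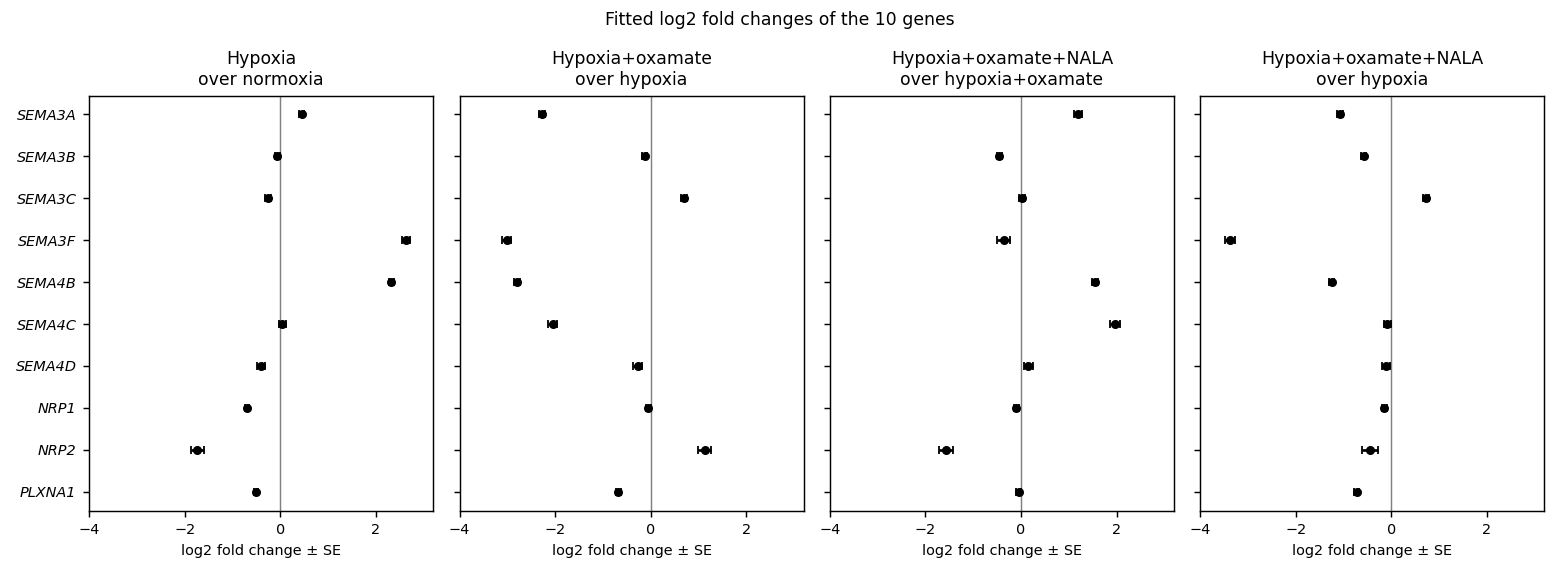
Fitted log2 fold changes (horizontal axis, points) with standard errors (bars) of the 10 genes in the 4 comparisons, each titled as the first group over the second. SEMA3F and SEMA4B lie furthest to the right in hypoxia over normoxia and furthest to the left in hypoxia+oxamate over hypoxia.

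The other members of the family, which are not among the 10 genes, were tested in the same fit and were listed by family with earlier results of these data known. Of the 13 other semaphorin genes 8 were tested, and 5 rose in hypoxia against normoxia while none fell (median 0.51). Over all tested genes 36.7% were higher and 36.8% lower (median 0.02). Nothing is read from the direction of the lists, here and below. SEMA7A, encoding a membrane-anchored semaphorin that binds integrins and PLXNC1, rose by 1.06 ± 0.063 (edgeR adjusted p = 9.59e-13). SEMA3E, encoding a ligand of PLXND1, rose by 0.91 ± 0.13 (edgeR adjusted p = 2.70e-06). SEMA5B, named after its values were seen, had 123 and 109 counts in hypoxia, against 0 in both normoxia libraries. It is among the 5, and it passed the expression filter through the hypoxia libraries alone. Its direction in comparisons with hypoxia, here and below, was therefore fixed by the filter and is no support for the tallies. Set against a floor of 3 counts over the normoxia group, SEMA5B was at least 78.2-fold higher in hypoxia, and the median of the list did not change with SEMA5B at this bound. Of 8 other plexin genes 7 were tested, and 4 rose and 1 fell (median 0.64). PLXNB3 rose by 2.04 ± 0.068 (edgeR adjusted p = 3.46e-17) and PLXNA3 by 1.58 ± 0.14 (edgeR adjusted p = 1.71e-09), while PLXNA2, a class A plexin like PLXNA1, fell by 1.03 on the log2 scale (edgeR adjusted p = 8.10e-08). PLXNA3 shares 11 exon bases with LAGE3 on the opposite strand, which averaged 429% of its level, and strand was not stated. The class B plexin genes PLXNB1 and PLXNB2 also rose, by 0.64 ± 0.044 and 0.93 ± 0.040.

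Partners of these receptors in hypoxia against normoxia also went both ways. Of the 4 tested growth factor genes whose products bind neuropilins, VEGFA (1.83 ± 0.056) and VEGFB (1.01 ± 0.055) rose and none fell. Of 8 tested co-receptor genes 7 rose and 1 fell (median 0.42), including the plexin-associated kinase gene MET (0.49 ± 0.036) and the pseudokinase gene PTK7 (1.16 ± 0.040) among the higher ones, while MST1R, encoding the RON receptor, changed by -0.49 ± 0.079. CD72, among the 7, had 24 and 21 counts in hypoxia libraries and at most 5 in any other. It passed the filter through hypoxia alone, which fixed its direction in comparisons with hypoxia, here and below. It shares 15.0% of its exon bases with TESK1 on the opposite strand, at 5350% of its level. ITGA1, also among the 7, shares 2.56% with PELO on the same strand, at 5620% of its level. Of 32 tested effector genes 12 rose and 14 fell (median -0.11). RRAS, encoding a small GTPase that plexins inactivate, rose by 2.26 ± 0.071, and the scaffold gene IQGAP1 by 0.82 ± 0.033. MICAL2, encoding a monooxygenase acting on actin, changed by -2.41 ± 0.085, and ARHGEF11, encoding a guanine nucleotide exchange factor bound by class B plexins, by -0.99 ± 0.077. All 7 protease genes passed, 4 higher and 3 lower (median 0.13), with PCSK5 (1.83 ± 0.086) and MMP14 (0.40 ± 0.037) among the higher ones. The proprotein convertase genes PCSK7 (-1.23 ± 0.061) and FURIN (-0.95 ± 0.051) were among the lower ones, and furin cleaves class 3 semaphorins. Over the 66 tested genes of these lists outside the 10, 34 rose and 19 fell, a share called of 80.3%, beside 73.5% of all tested genes.

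Hypoxia+oxamate against hypoxia asked what inhibition of lactate dehydrogenase changed in low oxygen. SEMA3F (-3.01 ± 0.094), SEMA4B (-2.80 ± 0.059), SEMA3A (-2.27 ± 0.066) and SEMA4C (-2.05 ± 0.094) were lower with oxamate, each by over 4-fold. PLXNA1 was lower as well (-0.68 ± 0.046). NRP2 (1.13 ± 0.14) and SEMA3C (0.69 ± 0.063) were higher with oxamate. NRP1 (-0.05 ± 0.052) did not pass the threshold. In an alternative run 8 of the 10 genes were called lower and 2 higher, so NRP1 was among those called there. SEMA4D (-0.27 ± 0.092) and SEMA3B (-0.12 ± 0.050) were lower by less than the others. SEMA3B did not pass the threshold without any 1 of the 4 libraries (hypoxia replicates -0.10 and -0.14, oxamate replicates -0.06 and 0.03), and SEMA4D did not without hypoxia replicate 1 (-0.24), oxamate replicate 1 (-0.10) or oxamate replicate 2 (-0.22). With RLE size factors SEMA3B (-0.04) and SEMA4D (-0.19) also did not pass. The test called 2 of the 10 genes higher and 7 lower, a share of 90.0%. Over all tested genes 80.5% were called, 35.7% higher and 44.8% lower. The median was -0.47 over the 10 genes and -0.20 over all tested genes. This comparison shares the hypoxia libraries with the first, so opposite signs in the 2 are not independent.

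Among the other family members, 6 of 8 tested semaphorin genes fell with oxamate and none rose (median -1.27). Over all tested genes 44.8% were lower and 35.7% higher (median -0.20). The family lists were drawn up with earlier results of these data known, so nothing is read from their direction. SEMA7A fell to 11.7 ± 0.11 CPM in oxamate libraries, against 57.8 ± 0.534 CPM in hypoxia libraries (-2.30 ± 0.074, edgeR adjusted p = 9.63e-18). SEMA3E changed by -1.83 ± 0.15 (edgeR adjusted p = 1.75e-10). SEMA5B had 0 counts in both oxamate libraries and was at least 67.5-fold lower than in hypoxia, set against a floor of 3 counts over the oxamate group. It is among the 6 that fell and had passed the filter through hypoxia alone. Of 7 tested plexin genes 5 fell and 1 rose (median -0.95). PLXNA3 (-1.68 ± 0.15) and PLXNB3 (-1.63 ± 0.067) were among those that fell, and PLXNA2 rose by 1.26 ± 0.097 (edgeR adjusted p = 4.72e-09). Of 4 growth factor genes 3 fell and none rose, VEGFA by -2.34 ± 0.061 and VEGFB by -0.47 ± 0.053. Of 8 co-receptor genes 5 fell and 1 rose, with MET at -1.32 ± 0.038, PTK7 at -1.24 ± 0.041 and the adhesion gene L1CAM at 0.45 ± 0.045. CD72, among the 5, had passed the filter through hypoxia alone.

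With oxamate, 18 of 32 effector genes were higher and 7 lower (median 0.34). Over all tested genes 35.7% were higher and 44.8% lower (median -0.20). The list was drawn up with earlier results of these data known, so nothing is read from its direction. CFL1, encoding the actin-severing protein cofilin, rose by 1.19 ± 0.028 and MICAL2 by 1.62 ± 0.092, while RRAS (-1.37 ± 0.066) and the GTPase-activating protein gene ARHGAP35 (-1.16 ± 0.042) fell. Of the 7 protease genes 2 rose and 5 fell. PCSK7 (1.24 ± 0.061) and FURIN (0.69 ± 0.053) rose, and ADAM10 (-2.19 ± 0.054) and PCSK5 (-2.06 ± 0.091) fell. Over the 66 tested genes outside the 10, 22 rose and 31 fell, a share called of 80.3%, beside 80.5% of all tested genes.

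**Figure D4:**
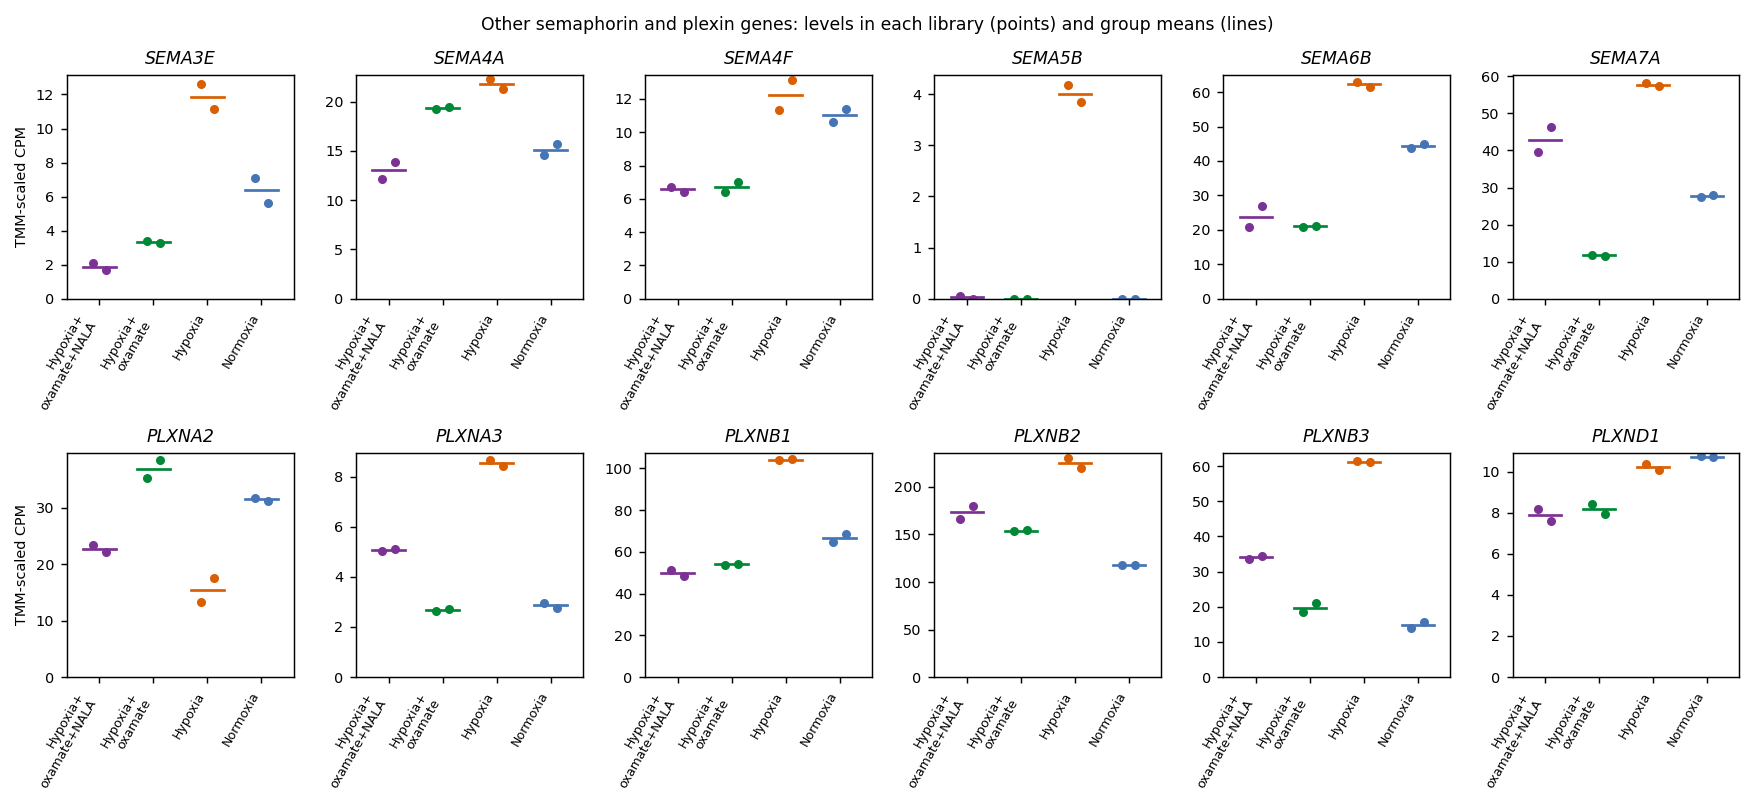
TMM-scaled CPM (vertical axis, from 0) of 12 other semaphorin and plexin genes in each library (points) and the group means (lines), with hypoxia+oxamate+NALA, hypoxia+oxamate, hypoxia and normoxia from left to right. SEMA5B has counts above 1 in the hypoxia libraries alone, and PLXNA2 is lowest in hypoxia.

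Hypoxia+oxamate+NALA against hypoxia+oxamate asked what lactate added to the inhibitor. SEMA4C was higher with NALA by 1.97 ± 0.097, SEMA4B by 1.55 ± 0.063 and SEMA3A by 1.19 ± 0.075. NRP2 was lower with NALA (-1.57 ± 0.15), and so were SEMA3B (-0.46 ± 0.053) and SEMA3F (-0.36 ± 0.14). SEMA3F did not pass the threshold without NALA replicate 1 (-0.27). SEMA3C (0.03 ± 0.062), SEMA4D (0.15 ± 0.097), NRP1 (-0.10 ± 0.054) and PLXNA1 (-0.05 ± 0.051) did not pass. NRP1 (-0.25) and PLXNA1 (-0.16) were called lower without oxamate replicate 1. The test called 3 of the 10 genes higher and 3 lower, a share of 60%. Over all tested genes 64.9% were called, 33.2% higher and 31.7% lower. The median was -0.01 over the 10 genes and -0.02 over all tested genes. With upper quartile normalization the lower calls among the 10 genes came to 6, and SEMA3C was called lower at -0.16.

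Other semaphorin genes mostly did not pass in this comparison, with 1 higher and 2 lower of 8 (median 0.08). SEMA7A rose to 43.0 ± 4.60 CPM in NALA libraries, against 11.7 ± 0.11 CPM in oxamate libraries (1.88 ± 0.078, edgeR adjusted p = 2.66e-15). SEMA3E (-0.84 ± 0.20) and SEMA4A (-0.56 ± 0.088) fell. Of 7 plexin genes 3 rose and 2 fell (median -0.06), among them PLXNA3 (0.92 ± 0.16) and PLXNB3 (0.79 ± 0.073) higher, and PLXNA2 (-0.70 ± 0.096) and PLXNB1 (-0.12 ± 0.051) lower. VEGFA (2.29 ± 0.062) and VEGFC (0.79 ± 0.12) rose, and VEGFB (-0.30 ± 0.059) fell, of 4 growth factor genes. MET rose by 1.09 ± 0.039, and MST1R (-2.20 ± 0.12) and L1CAM (-0.50 ± 0.045) fell, among 1 higher and 4 lower of 8 co-receptor genes. Of 32 effector genes 9 rose and 11 fell (median -0.10), with the small GTPase gene RND3 at 2.26 ± 0.047, ARHGAP35 at 1.08 ± 0.043, FARP2 at -0.97 ± 0.096 and the collapsin response mediator gene DPYSL2 at -0.79 ± 0.099. FARP2 shares 7.59% of its exon bases with STK25 on the opposite strand, which averaged 421% of its level. Of 7 protease genes 2 rose, ADAM17 by 1.94 ± 0.051 and ADAM10 by 1.26 ± 0.059, and 4 fell, including PCSK6 (-0.49 ± 0.12) and FURIN (-0.20 ± 0.052). ADAM17 shares 12.3% of its exon bases with IAH1 on the opposite strand, at 10.8% of its level. Over the 66 tested genes outside the 10, 18 rose and 24 fell, a share called of 63.6%, beside 64.9% of all tested genes.

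Hypoxia+oxamate+NALA against hypoxia set the cells with both agents beside hypoxia alone. SEMA3F was the furthest apart of the 10 genes, at 4.35 ± 0.474 CPM in NALA libraries, against 45.5 ± 0.633 CPM in hypoxia libraries (-3.37 ± 0.10). SEMA4B (-1.25 ± 0.052) and SEMA3A (-1.08 ± 0.059) were lower in NALA libraries by over 2-fold. SEMA4C (-0.09 ± 0.077) and SEMA4D (-0.11 ± 0.093) did not pass the threshold, which does not show that their levels were equal. SEMA4C was called lower with upper quartile normalization (-0.34) and with the filter of 50 counts (-0.17), and SEMA4D with upper quartile normalization (-0.37). SEMA3C was higher (0.72 ± 0.064), and PLXNA1 (-0.73 ± 0.048) and SEMA3B (-0.58 ± 0.052) were lower. NRP2 (-0.44 ± 0.17) and NRP1 (-0.15 ± 0.053) were lower too. NRP2 did not pass without hypoxia replicate 2 (-0.38) or NALA replicate 1 (-0.38), and NRP1 did not without hypoxia replicate 1 (-0.13) or NALA replicate 1 (-0.13). The test called 1 of the 10 genes higher and 7 lower, a share of 80.0%. Over all tested genes 78.6% were called, 38.5% higher and 40.2% lower. The median was -0.51 over the 10 genes and -0.05 over all tested genes. This comparison shares its libraries with the preceding ones.

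In the same comparison 7 of 8 other semaphorin genes fell and none rose (median -1.13), with SEMA3E at -2.67 ± 0.17 and SEMA6B at -1.37 ± 0.079. Over all tested genes 40.2% were lower and 38.5% higher (median -0.05), and nothing is read from the direction of these lists. SEMA5B had 1 count in the NALA libraries and 232 in the hypoxia libraries, a ratio of hypoxia to NALA of 177 (95% exact binomial counting interval 31.5 to 7030). It had passed the filter through the hypoxia libraries alone, which fixed this direction. Of 7 plexin genes 6 fell and 1 rose, with PLXNB1 at -1.07 ± 0.047, PLXNB3 at -0.84 ± 0.063 and PLXNA2 at 0.56 ± 0.11. VEGFC rose by 0.89 ± 0.12 and VEGFB changed by -0.77 ± 0.056. MST1R (-2.67 ± 0.12) and PTK7 (-1.52 ± 0.042) fell, among 7 lower and none higher of 8 co-receptor genes. Of 32 effector genes 19 rose and 9 fell (median 0.45), with RND3 (1.53 ± 0.045) and MICAL2 (1.52 ± 0.094) higher and RRAS (-1.75 ± 0.071) and DPYSL2 (-1.23 ± 0.093) lower. Of 7 protease genes 3 rose, including PCSK7 (1.09 ± 0.063) and FURIN (0.49 ± 0.054), and 4 fell, including PCSK5 (-2.01 ± 0.093) and PCSK6 (-0.96 ± 0.11). Over the 66 tested genes outside the 10, 24 rose and 35 fell, a share called of 89.4%, beside 78.6% of all tested genes.

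The 3 genes with the widest range of group means were SEMA3F, SEMA4B and SEMA3A. For each, the 2 tested genes with the most similar profile were found by the Euclidean distance of centred log2 CPM over the 8 libraries, as a description. For SEMA3A they were TFRC, the transferrin receptor gene, at a distance of 0.12, and ADAM10 at 0.22. For SEMA4B they were CDKN1A, a cell cycle inhibitor gene, at 0.34, and MPIG6B at 0.38. For SEMA3F they were PLS3-AS1 at 0.38 and the chloride channel family gene CLIC5 at 0.39. The search covered 15553 genes for each, and the libraries of a group lie close together, so these distances rest mainly on 4 group means.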

How the data were processed

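RNA-seq libraries of KYSE150 cells were compared in 4 groups of 2 libraries. The authors deposited raw counts per gene in whole numbers, without normalization, and the counts may be rounded RSEM estimates. The submitters' processing notes name RSEM 1.3.3, STAR 2.7.8a and FastQC 0.11.9 as tools and GRCh38 or hg38 as the build. What each tool did, the annotation release and the strand setting were not stated. Total counts per library ran from 21845676 to 29406061.

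The 10 genes and the gene lists around them were chosen with earlier results of these data known. The analysis used edgeR 4.0.16 in R 4.3.3. Genes were kept by filterByExpr (minimum count 10), which left 15554, libraries were scaled by TMM, and 1 quasi-likelihood model of the 4 group means was fitted with robust dispersion, leaving 4 residual degrees of freedom. The F test was two-sided, the Benjamini-Hochberg adjustment ran over every tested gene, and calls were made under 0.05. Standard errors were derived from the F statistic, and log2 CPM used a prior count of 2. The method was tested on simulated data in which few genes changed and every gene had the same spread. That test does not cover comparisons in which most genes differ, as here.

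Outside the 10 genes, the text names, for each list and comparison, up to 2 passing genes with the largest rise and 2 with the largest fall at a mean log2 CPM of at least 1. CA9, NDRG1 and LDHA served to check the hypoxia label. The marker genes, PLXNB1 and PLXNB2 in hypoxia against normoxia, SEMA5B, CD72 and ITGA1 lie outside this rule. Of the 130 listed genes, all 130 have a position in GENCODE release 29, which gave exon lengths and shared exon bases. Promoter windows are those of RefSeq. Intervals and floors cover counting error only. Libraries of a group were no duplicates: their chi-square divided by its degrees of freedom was 4.59 in NALA and 1.84 to 2.08 in the other groups. The model shares its estimate of the spread over the groups, so standard errors of comparisons with NALA may be too small. Alternatives were RLE and upper quartile scaling, no count filter, DESeq2 1.42.0, a minimum of 50 counts in 2 libraries, a fit of the 2 compared groups alone, the replicate number as a block and each library left out in turn.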

Additional observations from a re-analysis of the deposited data

How the results depend on the processing

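Over the 4 comparisons and all alternatives, 402 alternative log2 fold changes of the 10 genes kept their side of the threshold and, where called, their direction, 24 no longer passed, 12 newly passed and 2 changed sign, each called in only 1 of the fits compared. SEMA3F, SEMA4B and SEMA3A in hypoxia against normoxia, and the 4 decreases of over 4-fold with oxamate, passed in every alternative run. The changes of sign were SEMA3B in hypoxia+oxamate against hypoxia, which ran from -0.14 to 0.03 over the fits with 1 library left out (0.030 without oxamate replicate 2), and SEMA3C in hypoxia+oxamate+NALA against hypoxia+oxamate, which was -0.16 with upper quartile normalization. In hypoxia+oxamate+NALA against hypoxia+oxamate the members called lower came to 6 with upper quartile normalization and 5 with the filter of 50 counts, against 3 as reported, and ranged from 2 to 5 with 1 library left out. The cause was not tested. Beside the changes given above, SEMA3C in hypoxia against normoxia was not called with upper quartile normalization (-0.14), and with DESeq2 NRP1 (-0.12) and NRP2 (-0.42) were not called in hypoxia+oxamate+NALA against hypoxia. In a fit of the 2 compared groups, SEMA3F in hypoxia+oxamate+NALA against hypoxia+oxamate (-0.36) and NRP2 in hypoxia+oxamate+NALA against hypoxia (-0.45) were not called. The counts of other pathway genes stayed within 1.5 times the reported ones in all alternatives. Upper quartile normalization moved the median over all genes, on the log2 scale, to 0.12, -0.26, -0.21 and -0.31 in the 4 comparisons in the order of the report, against 0.02, -0.20, -0.02 and -0.05 as reported, and small differences of the members are relative to that median. With it, 4150 genes were higher and 6340 lower in hypoxia+oxamate+NALA against hypoxia+oxamate (5160 and 4927 as reported), and 4683 and 7693 against hypoxia (5981 and 6246). The replicate number as a block left the calls among the 10 genes at 3 higher and 5 lower, 2 and 7, 3 and 3, and 1 and 7 in the 4 comparisons. Same-numbered libraries did not deviate together (correlations over genes from -0.05 to 0.01), so the numbers were not taken as pairs. NRP2 had the fewest counts of the 10 genes, from 46 in a NALA library to 348 in a normoxia library. Of the pathway genes named outside them, PLXNA3, SEMA3E, SEMA5B, CD72 and ITGA1 had fewer in all. Depth therefore limits the precision of NRP2 and of these genes.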
